A study of Mus musculus with 18 samples.

Results

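CDH5 and CLEC14A were examined beside 8 other genes known for their expression in blood vessel endothelium, PECAM1, ESAM, ENG, EGFL7, SOX17, SOX18, ROBO4 and TIE1. These 10 genes were found by symbol among the 24387 gene symbols of the 2 count files, and all 10 had a row in both. Gene symbols are given in capitals, as in the files. CDH5 and CLEC14A had been selected on their counts, which were higher in Kmt2c knockout (KO) cells of both lines, so their values are given as a description with no test. The other 8 genes were tested, where their counts allowed, to ask whether a wider endothelial set followed them. The samples were 18 poly(A) RNA-seq libraries of the cell lines 168FARN and 67NR, both non-metastatic lines of mouse mammary tumour, cultured in DMEM with serum. In each line 3 libraries were controls (WT), 3 came from Kmt2c KO cells and 3 from Kmt2d KO cells. The KO cells were pools, not clones, made by repeated transient transfection of Cas9-GFP with mCherry-tagged sgRNAs against exon 1, and the WT libraries of 168FARN are headed as control sgRNA in the count file while those of 67NR are headed as WT. Kmt2c and Kmt2d encode histone methyltransferases that act mainly at enhancers. Replicates of a group were passages of the same cells, so every error given here is the spread between passages.

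Endothelial cells line blood vessels. Their identity is set by ETS, SOX and GATA transcription factors, their contacts are held by the cadherin encoded by CDH5 together with PECAM1 and ESAM, and they carry receptors such as TIE1, ROBO4 and endoglin (ENG) that sense angiopoietin, guidance and TGF-β family signals. Tumour cells can express single genes of this set, and tumour cells that take on several of them have been described as vascular mimicry. CDH5 is among the genes discussed in that setting.

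The libraries held between 14359760 and 43427382 counts in 168FARN and between 40951775 and 79251530 in 67NR. Levels are given in CPM, counts scaled to a common library size, with trimmed mean of M values (TMM) factors over all 18 libraries, and on this scale 3 counts corresponded to between 0.071 and 0.215 CPM in 168FARN and between 0.0355 and 0.0753 CPM in 67NR. Replicate 3 of each group stood apart from replicates 1 and 2, and libraries with the same number deviated together, so calls of the tested members that change when the replicate number is added to the model as a block are given both ways. No fall of a targeted mRNA was called. The 168FARN WT libraries held 117, 108 and 45.5 CPM of KMT2C and the Kmt2c KO libraries 98.5, 91.8 and 48, while in 67NR the levels were 58.1, 64.7 and 55.7 CPM for WT and 85.3, 92.2 and 82.9 for Kmt2c KO, a called rise with an adjusted p of 0.00669 in edgeR. The 168FARN WT libraries held 165, 163 and 106 CPM of KMT2D and the Kmt2d KO libraries 299, 264 and 138, while in 67NR the levels were 114, 99.6 and 84.7 CPM for WT and 91, 141 and 95.9 for Kmt2d KO. The log2 fold change of KMT2D in 168FARN Kmt2d KO was 0.71 with an adjusted p of 1 in edgeR, and 0.66 with an adjusted p of 0.00622, a called rise, with the replicate block. Small edits in exon 1 need not lower an mRNA, so these levels do not check the labels. The paper reports mutant reads at the targeted regions of every knockout and reduced protein by immunoblot. In that sequencing the share of mutant reads was lowest in 67NR Kmt2c KO, and it was higher for Kmt2d than for Kmt2c in each line. The part of unequal editing in the differences between lines or between knockouts was not tested.

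CDH5, which encodes VE-cadherin, the adherens junction cadherin of endothelium, was a low-count gene in all groups. Its gene spans chr8:106625525-106668402 on the plus strand of mm9. In 168FARN WT it was at 0.513, 0.672 and 1.14 CPM, from 15, 22 and 48 counts. In 168FARN Kmt2c KO it was at 4.77, 4.97 and 4.56 CPM, from 144, 186 and 167 counts, and in 168FARN Kmt2d KO at 0.394, 0.286 and 0.490 CPM. All Kmt2c KO libraries of 168FARN thus lay above all WT libraries and all Kmt2d KO libraries lay below them. The 67NR WT libraries were at 0.425, 0.206 and 0.138 CPM, the Kmt2c KO libraries at 1.53, 1.15 and 1.85, and the Kmt2d KO libraries at 0.535, 0.847 and 1.15. Both 67NR knockouts lay above every 67NR WT library and they met each other at 1.15 CPM. Both knockouts of a line were compared with the same WT libraries. The log2 fold change against WT was 2.61 (SE 0.39) in 168FARN Kmt2c KO and 2.6 (SE 0.53) in 67NR Kmt2c KO. For Kmt2d KO it was -0.95 (SE 0.40) in 168FARN and 1.75 (SE 0.52) in 67NR, so the fold changes had opposite signs in the 2 lines, and without WT replicate 3 the 168FARN value was -0.55. In bulk libraries a smaller share of cells with a transcript and less transcript per cell cannot be told apart.

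Ordered by mean level, CDH5 was highest in 168FARN Kmt2c KO at 4.77 ± 0.201 CPM (SD, n = 3), followed by 67NR Kmt2c KO at 1.51 ± 0.354, 67NR Kmt2d KO at 0.845 ± 0.31, 168FARN WT at 0.774 ± 0.323, 168FARN Kmt2d KO at 0.39 ± 0.102 and 67NR WT at 0.256 ± 0.15. Libraries of 67NR Kmt2d KO and 168FARN WT overlapped, as did those of 168FARN Kmt2d KO and 67NR WT. The highest group stood clear of all others.

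CLEC14A encodes a C-type lectin transmembrane protein of vascular endothelium that binds the matrix protein MMRN2. The gene lies at chr12:59365707-59370245 on the minus strand of mm9. The 168FARN WT libraries were at 2.39, 1.59 and 1.51 CPM, the Kmt2c KO libraries at 6.26, 6.49 and 5.66, and the Kmt2d KO libraries at 1.80, 2.72 and 2.19. Kmt2c KO libraries of 168FARN lay above all WT libraries, whereas Kmt2d KO and WT libraries overlapped. The 67NR WT libraries were at 1.77, 2.04 and 0.551 CPM, the Kmt2c KO libraries at 20.5, 21.9 and 16.4, and the Kmt2d KO libraries at 12.0, 11.4 and 9.36. Here the 3 genotypes did not overlap, with Kmt2c KO highest and WT lowest. The log2 fold change against WT was 1.75 (SE 0.29) in 168FARN Kmt2c KO, 0.30 (SE 0.29) in 168FARN Kmt2d KO, 3.82 (SE 0.43) in 67NR Kmt2c KO and 2.97 (SE 0.41) in 67NR Kmt2d KO. As ratios of mean CPM, Kmt2c KO was 3.35 times WT in 168FARN and 13.4 times WT in 67NR, while for CDH5 the ratios were 6.16 and 5.9.

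**Figure D1:**
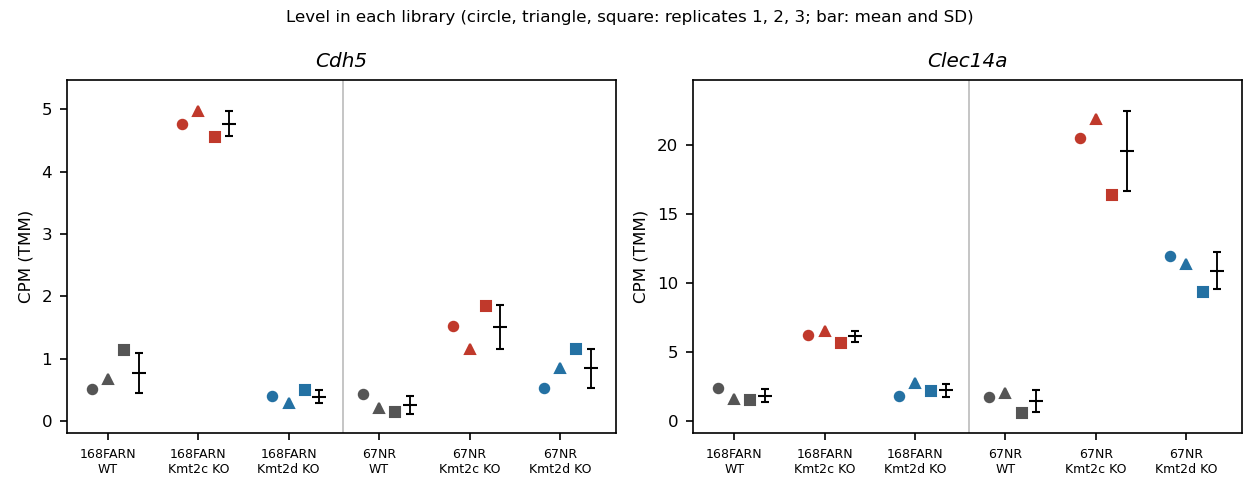
CPM (TMM-scaled, linear axis) of CDH5 and CLEC14A in each of the 18 libraries by line and genotype, with circles, triangles and squares for replicates 1, 2 and 3 and black bars for the mean and SD (n = 3). CDH5 was highest in 168FARN Kmt2c KO, between 4.56 and 4.97 CPM, whereas CLEC14A was highest in 67NR Kmt2c KO, between 16.4 and 21.9 CPM.

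The start of CLEC14A is shown because its counts were higher in the knockouts, and that of ENG, described next, because it moved the other way. Both were read from RefSeq (GRCm38.p6, 300 bases, 250 before to 50 after the annotated start) and placed on mm9 by an exact match. Capitals mark CAGGAA on either strand, the ETS-type motif found there.
CLEC14A (chr12:59370196-59370495, minus strand): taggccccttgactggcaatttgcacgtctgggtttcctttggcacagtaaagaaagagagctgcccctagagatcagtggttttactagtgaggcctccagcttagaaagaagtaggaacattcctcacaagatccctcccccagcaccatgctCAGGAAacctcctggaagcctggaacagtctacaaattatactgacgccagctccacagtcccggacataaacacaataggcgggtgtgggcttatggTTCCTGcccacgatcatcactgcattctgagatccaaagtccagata
ENG (chr2:32501865-32502164, plus strand): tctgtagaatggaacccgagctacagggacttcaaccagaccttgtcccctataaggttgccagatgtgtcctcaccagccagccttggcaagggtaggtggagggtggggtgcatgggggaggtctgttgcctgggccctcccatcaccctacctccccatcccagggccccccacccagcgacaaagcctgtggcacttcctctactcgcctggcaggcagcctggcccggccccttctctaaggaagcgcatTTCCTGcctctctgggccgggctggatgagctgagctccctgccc
CLEC14A held CAGGAA at -95 on its own strand and at 4 on the opposite strand, counted from the annotated start, and ENG held it at 6 on the opposite strand. This motif was present in 30.5% of the 32544 different RefSeq promoter sequences of this length. Neither sequence held the ETS motif CCGGAA, present in 15.0% of promoters on either strand. Neither held the SOX motif AACAAT, present in 10.6%, nor the GATA motif AGATAA, present in 11.2%. A match describes letters only and says nothing of binding. The promoter of CDH5 is not shown.

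None of the 8 other genes was called higher in a knockout. A gene was called when its adjusted p was under 0.1 (edgeR's quasi-likelihood test, Benjamini-Hochberg over all genes tested) and its log2 fold change was over 0.6 in either direction. Of the 8, only ENG passed the filter on low counts in 168FARN, and ENG, EGFL7 and PECAM1 passed it in 67NR. In 168FARN, ENG, the 1 gene of the 8 tested, was not called in Kmt2c KO or in Kmt2d KO. There 0.359% and 0.286% of all genes tested were called. In those comparisons DESeq2 also called 0 of the 8. ENG had an unadjusted p of 0.0872 in Kmt2c KO and 0.144 in Kmt2d KO in edgeR, and the others were not tested there. By direction, 0.196% of genes were called higher and 0.163% lower in 168FARN Kmt2c KO, and 0.147% higher and 0.139% lower in Kmt2d KO. In 67NR, 2 of the 3 tested were called lower and 0 higher in Kmt2c KO, where 17.4% of genes were called lower and 17.9% higher. In Kmt2d KO 1 of the 3 was called lower and 0 higher, where 11.6% were called lower and 13.9% higher. The 5 genes that failed the filter in both lines had at most 12 counts in any library and could not be called either way.

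ENG encodes endoglin, a TGF-β family co-receptor of endothelium that is also made by stromal and mesenchymal cells. Its gene spans chr2:32502115-32538189 on the plus strand of mm9. The 67NR WT libraries were at 51.4, 42.8 and 40.8 CPM, the Kmt2c KO libraries at 11.5, 9.76 and 8.94, and the Kmt2d KO libraries at 15.5, 17.7 and 12.9. The 3 genotypes did not overlap, with WT highest and Kmt2c KO lowest. The log2 fold change against WT was -2.08 (SE 0.19) in Kmt2c KO, with an adjusted p of 5.08e-05 in edgeR, and -1.47 (SE 0.19) in Kmt2d KO, with an adjusted p of 6.13e-04. Both falls were present in each of the 3 replicate numbers.

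In 168FARN, ENG was lower than in 67NR WT. The WT libraries were at 5.44, 7.33 and 1.99 CPM, the Kmt2c KO libraries at 2.55, 3.23 and 2.10, and the Kmt2d KO libraries at 2.54, 3.65 and 2.49. WT replicates 1 and 2 lay above every knockout library and WT replicate 3 lay below all of them. The log2 fold changes of -0.90 (SE 0.46) and -0.75 (SE 0.47) had adjusted p of 0.981 and 1 in edgeR. With the replicate block the Kmt2c KO value was -0.79 with an adjusted p of 0.092, a call, and the Kmt2d KO value was -0.62 with an adjusted p of 0.218. Without replicate 3, both were called, at -1.12 with an adjusted p of 0.00356 and -1.04 with an adjusted p of 0.012.

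ENG shares exon sequence with its neighbours. In the GENCODE vM1 annotation of mm9, 124 bases lie in exons of AK1 on the same strand and 61 bases in exons of FPGS on the opposite strand. AK1, a nucleotide kinase gene, was higher in the 67NR knockouts, rising from 4.88, 4.42 and 4.94 CPM to 51.5, 42.1 and 41.7 with Kmt2c knocked out and to 28.3, 31 and 28.8 with Kmt2d knocked out, the opposite direction to ENG. Its adjusted p was 2.68e-06 for Kmt2c KO in edgeR. AK1, FPGS and AGPAT2 were named after their values were seen. FPGS fell in 67NR Kmt2d KO by 0.64 on the log2 scale, with an adjusted p of 0.0877 in edgeR. In 67NR Kmt2c KO its log2 fold change was -0.58 with an adjusted p of 0.09, short of the fold change needed for a call.

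EGFL7 encodes a secreted protein of the vessel wall and hosts the microRNA gene MIR126. Its gene spans chr2:26435534-26448640 on the plus strand of mm9. It was absent or nearly so in 168FARN, with between 0 and 2 counts in each of the 9 libraries. The 67NR WT libraries were at 4.05, 2.72 and 8.27 CPM, the Kmt2c KO libraries at 0.574, 0.550 and 2.23, and the Kmt2d KO libraries at 0.627, 0.773 and 4.24. Replicate 3 was the highest library of each 67NR genotype, and within each replicate number both knockouts lay below WT. Kmt2c KO did not overlap WT and Kmt2d KO did. The log2 fold change was -2.10 (SE 0.86) in Kmt2c KO, with an adjusted p of 0.0901 in edgeR, a call that did not hold in 4 of the 6 fits that each omitted 1 library (Kmt2c KO replicate 1 or 2, or WT replicate 1 or 3). Over these 6 fits the adjusted p ranged from 0.0405 to 0.239. It was -1.36 (SE 0.84) in Kmt2d KO, with an adjusted p of 0.295. With the replicate block both were called, at -2.29 with an adjusted p of 1.67e-04 and at -1.71 with an adjusted p of 0.00172. Without Kmt2d KO replicate 3 the Kmt2d KO value was -2.73 with an adjusted p of 0.0382.

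EGFL7 also shares 64 exon bases with AGPAT2, a lipid synthesis gene on the opposite strand, and the strand setting used for counting is not given in the sources used here. AGPAT2 fell in both 67NR knockouts, by 1.00 on the log2 scale in Kmt2c KO with an adjusted p of 0.00586 and by 0.88 in Kmt2d KO with an adjusted p of 0.0167, both in edgeR. The part of shared bases in the EGFL7 counts was not tested. 

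PECAM1, ESAM, ROBO4 and TIE1 encode adhesion molecules and receptors of the endothelial surface, and SOX17 and SOX18 encode transcription factors of arterial and developing endothelium. PECAM1 (chr11:106515531-106611942, minus strand of mm9) was between 0 and 9 counts in the 168FARN libraries and between 6 and 34 in those of 67NR. The 67NR means were 0.299 ± 0.175 CPM for WT, 0.202 ± 0.0962 for Kmt2c KO and 0.24 ± 0.0965 for Kmt2d KO (SD, n = 3), and the genotypes overlapped. Its log2 fold changes of -0.46 (SE 0.62) and -0.26 (SE 0.62) had adjusted p of 0.619 and 0.816 in edgeR. ESAM (chr9:37335663-37345904, plus strand) was between 0 and 12 counts in all libraries and was not tested. In 168FARN it had 5, 8 and 9 counts in WT against 2, 3 and 3 in Kmt2c KO, the opposite order to CDH5. ROBO4 (chr9:37209482-37221608, plus strand) had 5, 5 and 3 counts in 168FARN WT, 5, 0 and 0 in Kmt2c KO and 0 in every other library. TIE1 (chr4:118143796-118162666, minus strand) had between 0 and 4 counts. SOX17 (chr1:4481009-4486494, minus strand) had 0 counts in all 18 libraries, which allows up to 0.215 CPM in the library with the highest floor, and SOX18 (chr2:181404541-181406345, minus strand) between 0 and 2.

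**Figure D2:**
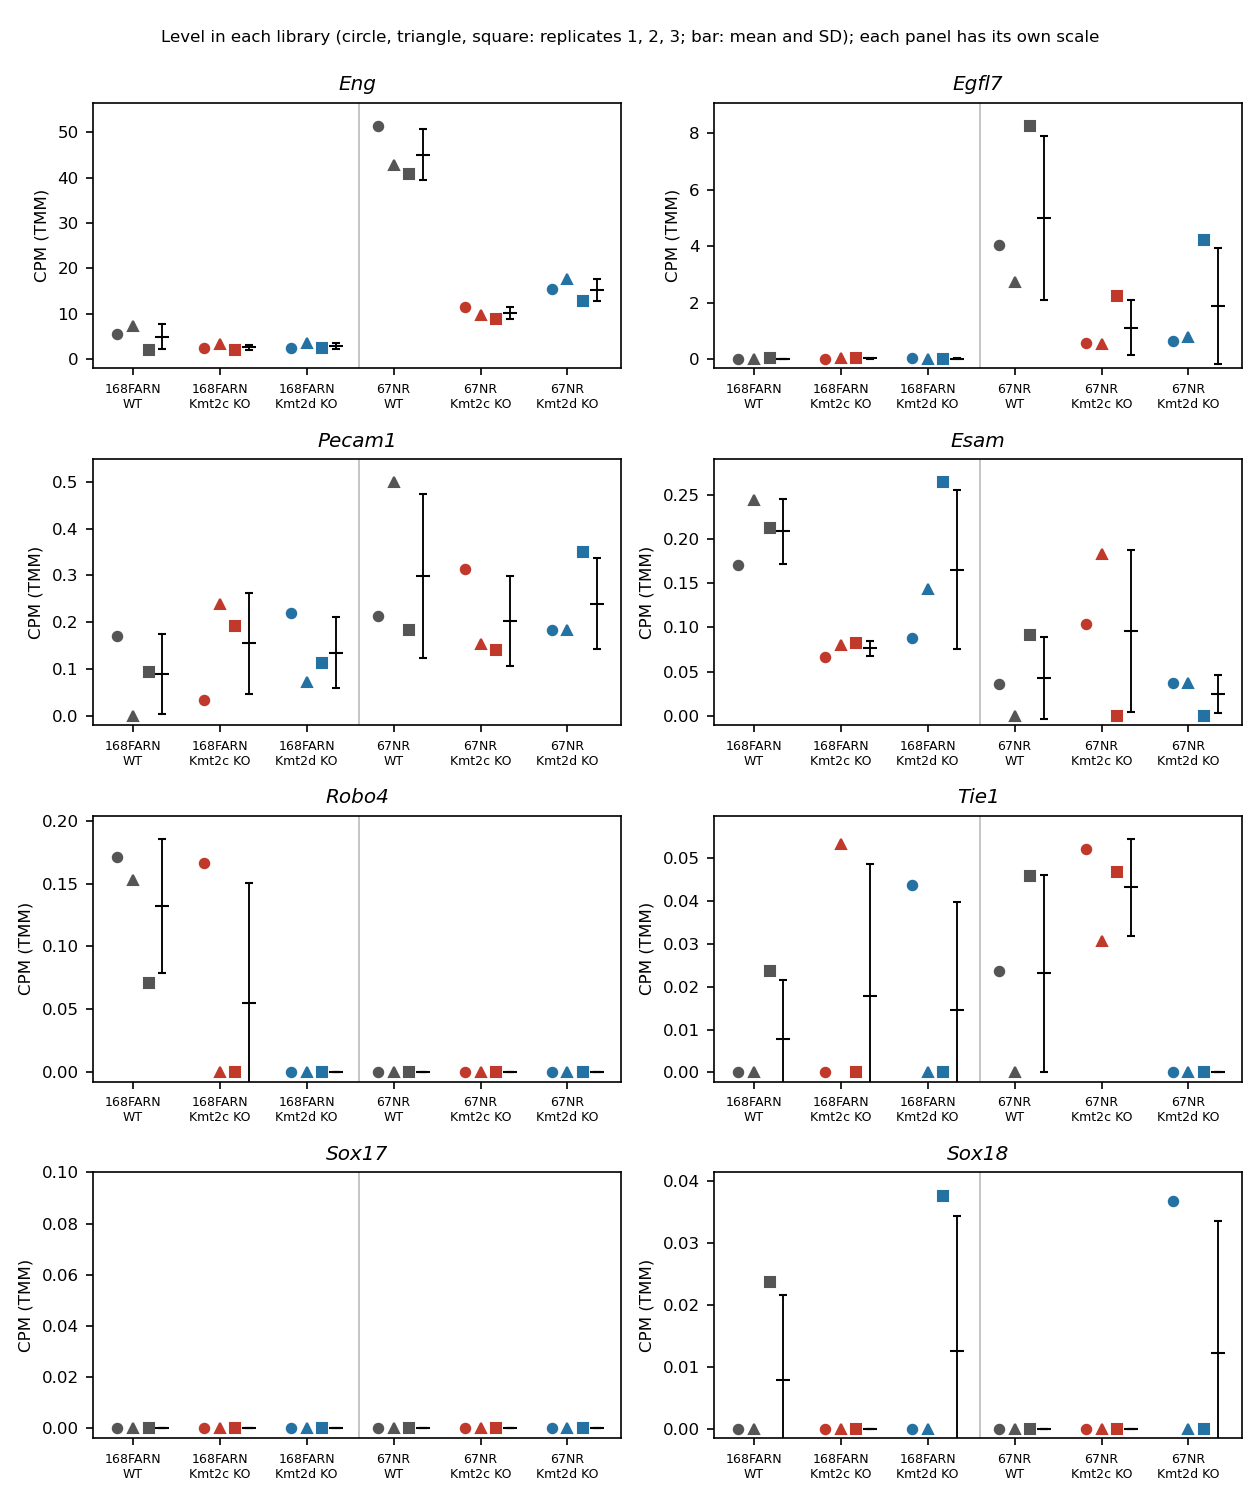
CPM (TMM-scaled, linear axis, a scale of its own in each panel) of the 8 other genes in each library, with circles, triangles and squares for replicates 1, 2 and 3 and black bars for the mean and SD (n = 3, cut off below 0). ENG and EGFL7 were highest in 67NR WT, whereas PECAM1, ESAM, ROBO4, TIE1, SOX17 and SOX18 did not exceed 0.499 CPM in any library.

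**Figure D3:**
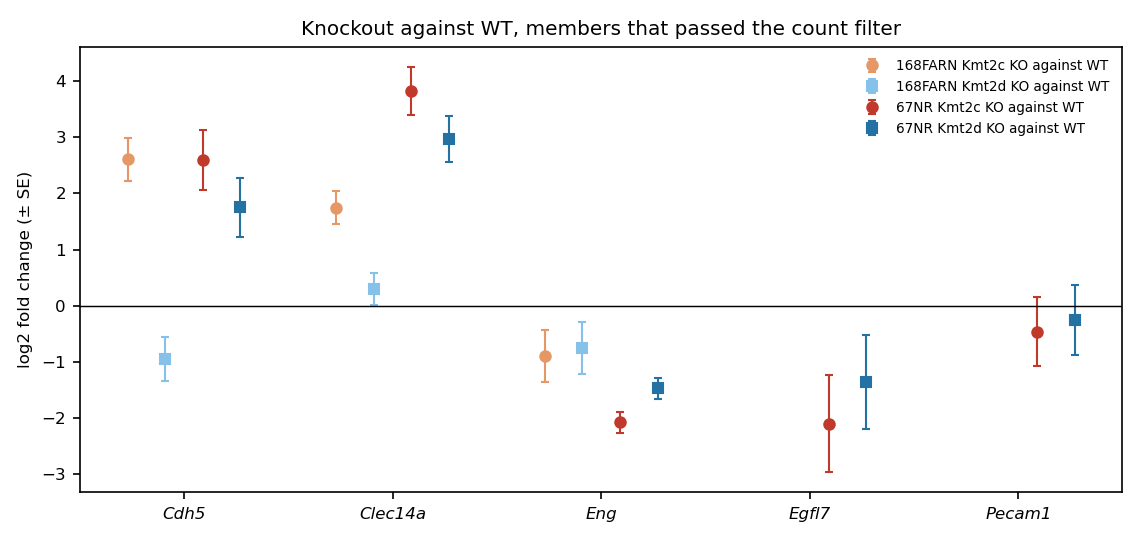
Log2 fold change of each knockout against WT of its line for the 5 genes that passed the filter on low counts in at least 1 line, with bars for the SE. CDH5 and CLEC14A lay above 0 in 3 of 4 comparisons or more, whereas ENG, EGFL7 and PECAM1 lay below 0 in every comparison in which they were tested.

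The knockouts of a line were also compared directly. CDH5 was 0.84 (SE 0.50) and CLEC14A 0.85 (SE 0.38) higher on the log2 scale in Kmt2c KO than in Kmt2d KO of 67NR, against 3.56 (SE 0.41) and 1.45 (SE 0.29) in 168FARN. ENG was -0.60 (SE 0.19) in Kmt2c KO relative to Kmt2d KO of 67NR, with an adjusted p of 0.25 in edgeR and 0.0315 with the replicate block, where it was a call. EGFL7 and PECAM1 had adjusted p of 0.837 and 0.969. In edgeR, ENG, EGFL7 and PECAM1 were tested in 67NR and ENG alone in 168FARN. None was called between the knockouts of either line, where 1.41% of all genes were called in 67NR (0.132% higher and 1.28% lower in Kmt2c KO) and 0.253% in 168FARN (0.131% higher and 0.122% lower). DESeq2 called 0 of the 8 there, and ENG in 67NR had the only unadjusted p under 0.05.

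In WT cells the lines differed in ENG and EGFL7. ENG was 3.20 (SE 0.37) and EGFL7 8.68 (SE 1.28) higher on the log2 scale in 67NR WT than in 168FARN WT, with adjusted p of 5.48e-06 and 5.97e-05 in edgeR fitted to all 18 libraries, where 39.2% of genes were called, 22.3% higher and 16.9% lower in 67NR. With EGFL7 at 0, 0 and 1 count in 168FARN WT the size of its fold change rests on the prior count. PECAM1 had a log2 difference of 1.75 (SE 0.87) and an adjusted p of 0.132, and was called without 168FARN WT replicate 1, at 2.48 with an adjusted p of 0.0942, and without replicate 3 of both lines, at 2.04 with an adjusted p of 0.0928. ESAM, which failed the filter, was called lower in 67NR WT by DESeq2, at -2.44 with an adjusted p of 0.0732, and ROBO4, which also failed it, in edgeR with no filter, at -5.59 with an adjusted p of 0.0714. The log2 difference of CDH5, of the pair with no test, was -1.56 (SE 0.46). Line and any batch that goes with the line cannot be told apart, and the control treatment goes with the line as well.

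The difference between lines in the knockout effect itself was not called for ENG, EGFL7 or PECAM1, the genes of the 8 that were tested there. For ENG the Kmt2c KO effect was -1.26 (SE 0.49) in 67NR relative to 168FARN, with an adjusted p of 0.118 in edgeR, 0.0805 in DESeq2 and 0.00175 with the replicate block. The Kmt2d KO effect differed by -0.78 (SE 0.49), with an adjusted p of 0.452, and 0.0334 with the replicate block. For EGFL7 the adjusted p for Kmt2c KO was 0.32, and 0.08 with the block. With at most 2 EGFL7 counts in any 168FARN library, the size of its difference rests on the prior count. Among all genes 16.0% were called for Kmt2c KO (8.49% higher and 7.55% lower in 67NR) and 10.6% for Kmt2d KO (6.68% higher and 3.92% lower). As a description, the Kmt2c KO effect on CDH5 differed between lines by -0.10 (SE 0.69) and that on CLEC14A by 1.99 (SE 0.51), while the Kmt2d KO effects differed by 2.64 (SE 0.66) and 2.61 (SE 0.52).

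Per kilobase of annotated exon, the members could be set beside each other. In 168FARN Kmt2c KO, CLEC14A was at 1.35 ± 0.0944 and CDH5 at 1.2 ± 0.0504 CPM per kilobase (SD, n = 3), above ENG at 0.679 ± 0.147. In 168FARN WT the order was different, with ENG at 1.27 ± 0.7, CLEC14A at 0.404 ± 0.108 and CDH5 at 0.194 ± 0.0811. In 67NR WT, ENG led at 11.6 ± 1.45, followed by EGFL7 at 1.4 ± 0.809, CLEC14A at 0.321 ± 0.175 and CDH5 at 0.0643 ± 0.0377. In 67NR Kmt2c KO, CLEC14A led at 4.32 ± 0.637, above ENG at 2.6 ± 0.333, CDH5 at 0.379 ± 0.0889 and EGFL7 at 0.312 ± 0.269, of which the last 2 overlapped.

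Several genes that define endothelium had no counts at all. ERG, an ETS factor of endothelial cells, CLDN5, their tight junction claudin, and EMCN, their sialomucin, had 0 counts in all 18 libraries. KDR, the main VEGF receptor, had between 0 and 2 counts, and TEK, the angiopoietin receptor, between 0 and 22. FLT1, a VEGF receptor, was at 12.9, 16.8 and 13.8 CPM in 67NR WT and at 8.22, 6.45 and 5.94 CPM in Kmt2c KO. VWF, the von Willebrand factor gene, was named after its values were seen. The 67NR WT libraries were at 0.0473, 0 and 0.0919 CPM, the Kmt2c KO libraries at 0.352, 0.52 and 0.188, and the Kmt2d KO libraries at 0.517, 0.663 and 0.527, with log2 fold changes of 3.07 and 3.74 and adjusted p of 0.0226 and 0.0144 in edgeR. With 4, 0 and 4 counts in 67NR WT, VWF passed the filter there through the knockouts alone, so it could not be called lower. VWF was higher in 168FARN, at 3.04, 4.03 and 0.331 CPM for WT, 2.28, 2.4 and 0.383 for Kmt2c KO and 10.8, 9.16 and 0.377 for Kmt2d KO, with replicate 3 lowest in each genotype. There its Kmt2d KO value was 1.48 with an adjusted p of 1, and 1.33 with an adjusted p of 0.0274, a call, with the replicate block.

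Among 30 other surface and signalling genes of endothelium, 15 passed the filter in 67NR. Of these, 8 were called higher and 2 lower in Kmt2c KO, and 7 higher and 3 lower in Kmt2d KO, with median log2 fold changes of 1.33 and 1.39 beside -0.02 and -0.02 over all genes tested. The genes called higher include VWF and ACVRL1, which passed the filter through knockout libraries and so could not be called lower. CD34, a sialomucin of haematopoietic progenitors, vessels and stromal cells, was the most abundant. The 67NR WT libraries were at 9.52, 9.9 and 6.54 CPM, the Kmt2c KO libraries at 199, 184 and 230, and the Kmt2d KO libraries at 152, 140 and 166, with no overlap with WT. Its log2 fold changes were 4.64 (SE 0.21) and 4.22 (SE 0.21), with adjusted p of 2.04e-06 and 5.32e-06 in edgeR. In 168FARN it was already at 200, 190 and 199 CPM in WT, and reached 291, 311 and 344 CPM in Kmt2c KO, a log2 fold change of 0.69 with an adjusted p of 0.36 and of 0.00377 with the replicate block, where it was a call. The Kmt2c KO libraries of 67NR thus spanned the level of 168FARN WT, and its Kmt2d KO libraries lay below it.

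ACVRL1, a TGF-β family receptor that works with endoglin in endothelium, rose in 67NR by 2.98 (SE 0.54) in Kmt2c KO and 2.64 (SE 0.54) in Kmt2d KO on the log2 scale, the opposite direction to ENG. It had 10, 8 and 10 counts in 67NR WT and passed the filter through knockout libraries, so it could not be called lower. NOTCH4, a Notch receptor of vessels, rose by 2.84 (SE 0.46) and 1.72 (SE 0.44). RASIP1, a Ras-interacting protein needed for vessel lumens, rose by 2.81 (SE 0.37) and 2.42 (SE 0.37), and NOS3, endothelial nitric oxide synthase, by 1.83 (SE 0.45) and 1.65 (SE 0.44). S1PR1, a sphingosine phosphate receptor, fell, at -3.08 (SE 0.35) and -1.98 (SE 0.33), as did FLT1, at -1.0 (SE 0.20) and -0.68 (SE 0.20). All of these were called in both 67NR knockouts, although the FLT1 call in Kmt2d KO was lost in 2 of the 6 omissions of 1 library, those of Kmt2d KO replicate 2 and WT replicate 2 (-0.75 to -0.56, adjusted p up to 0.144). The set was therefore mixed in direction, and the called share of 10 in 15 in each knockout stood beside 35.3% and 25.5% of all genes called.

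In 168FARN, 13 of these 30 genes passed the filter. In Kmt2c KO, 1 was called higher and 0 lower, and in Kmt2d KO 0 were called in either direction by edgeR, with 1 at an unadjusted p under 0.05, and 1 called by DESeq2. Among all genes edgeR called 0.196% higher and 0.163% lower in Kmt2c KO, and 0.147% and 0.139% in Kmt2d KO. With shares this small, 0 calls in a short list says little about the list. With the replicate block 4 were called higher in each knockout, and 0 lower. The share of all genes was not computed for DESeq2, for the block or for unadjusted p under 0.05. Such counts, here and for the lists that follow, therefore cannot be set beside it. The gene called in Kmt2c KO by edgeR was SELE, the endothelial E-selectin, named after its values were seen. The 168FARN WT libraries were at 0.41, 0.519 and 0.213 CPM, the Kmt2c KO libraries at 2.12, 2.14 and 1.83, and the Kmt2d KO libraries at 1.49, 1.65 and 2.0. Both knockouts lay above WT, and the log2 fold changes of 2.41 (SE 0.40) and 2.18 (SE 0.41) had adjusted p of 0.0858 and 0.131 in edgeR. The call in Kmt2c KO was lost when any 1 of the 6 libraries was left out, and with the replicate block Kmt2d KO was called too, with an adjusted p of 0.00442. For NOTCH4, at 0.71 in 168FARN Kmt2c KO with an adjusted p of 0.542, the replicate block gave an adjusted p of 0.0403. In 67NR, SELE rose from 0.236, 0.0881 and 0.321 CPM to 0.47, 0.535 and 0.516 with Kmt2c knocked out, a log2 fold change of 1.33 with an adjusted p of 0.0901. For Kmt2d KO it was 1.39 with an adjusted p of 0.102, and 1.44 with an adjusted p of 0.0634, a call, with the replicate block.

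CLEC14A has relatives in its lectin family. Of the 4 genes listed, THBD (thrombomodulin), CD93, CD248 and the ligand MMRN2, 2 passed the filter in 67NR and both were called higher in both knockouts. Among all genes 17.9% were called higher in Kmt2c KO and 13.9% in Kmt2d KO. CD93 was also counted among the 30 surface and signalling genes above. For THBD the 67NR WT libraries were at 3.04, 2.95 and 2.16 CPM, the Kmt2c KO libraries at 38.8, 36.4 and 38.6, and the Kmt2d KO libraries at 32.5, 30.1 and 26. Its log2 fold changes were 3.88 (SE 0.20) and 3.52 (SE 0.19), with adjusted p of 2.87e-06 and 7.54e-06 in edgeR. For CD93 the WT libraries were at 0.555, 0.499 and 0.321 CPM, the Kmt2c KO libraries at 2.91, 2.81 and 3.03, and the Kmt2d KO libraries at 1.48, 2.01 and 2.16. Its log2 fold changes were 2.73 (SE 0.34) and 2.09 (SE 0.33), with adjusted p of 2.79e-04 and 0.00199. In 168FARN 3 of the 4 passed and 0 were called by edgeR in either knockout, where 0.359% and 0.286% of all genes were called. THBD was at 0.63 and 0.61 there, with adjusted p of 0.498 and 0.602. With the replicate block THBD was called in 168FARN Kmt2c KO, with an adjusted p of 0.00338, and DESeq2 and the block each called 1 gene of the list lower in Kmt2d KO.

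Transcription factors that act in endothelium were called in both directions in 67NR. Of 21 listed, 12 passed the filter, and 3 were called higher and 5 lower in Kmt2c KO, where 35.3% of all genes were called, and 1 higher and 2 lower in Kmt2d KO, a share near the 25.5% of all genes. For FOXC1, a forkhead factor of mesenchyme and vessels, the WT libraries were at 194, 213 and 214 CPM, the Kmt2c KO libraries at 41.7, 44.1 and 51.6, and the Kmt2d KO libraries at 62, 65.8 and 64.3. Its log2 fold changes were -2.09 (SE 0.14) and -1.61 (SE 0.14). FOXC2, its close relative, fell too, at -2.55 (SE 0.22) and -1.38 (SE 0.21). MEF2C, HEY2 and FOXO1 fell in Kmt2c KO, at -3.57, -2.35 and -0.90, and MEF2C was also called in Kmt2d KO with the replicate block, with an adjusted p of 0.0137 in place of 0.236. GATA2, a GATA factor of endothelium and blood, rose by 1.98 (SE 0.55) in Kmt2c KO and 1.48 (SE 0.54) in Kmt2d KO, and KLF2, a factor induced by flow, and ELK3, an ETS factor, rose in Kmt2c KO by 1.34 and 0.75. The GATA2 call in Kmt2d KO was lost without Kmt2d KO replicate 1 or 2 or WT replicate 1 or 2 (log2 fold change 1.1 to 2.37 over the 6 omissions, adjusted p up to 0.225), and the KLF2 call without Kmt2c KO replicate 3 or WT replicate 1 or 2 (0.89 to 1.70, adjusted p up to 0.22). In 168FARN 10 passed the filter and 0 were called in either knockout by edgeR or DESeq2, and 0 had an unadjusted p under 0.05. There edgeR called 0.359% of all genes in Kmt2c KO and 0.286% in Kmt2d KO. The replicate block gave 1 call, lower, in Kmt2c KO and 1, higher, in Kmt2d KO.

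Of 21 ligands and angiogenic factors, 16 passed the filter in 67NR, and 4 were called higher and 5 lower in Kmt2c KO and 4 higher and 4 lower in Kmt2d KO, beside 35.3% and 25.5% of all genes called. SEMA3A, a semaphorin, rose by 3.97 (SE 0.35) and 3.20 (SE 0.34), and ADM, adrenomedullin, by 3.15 (SE 0.43) and 3.05 (SE 0.43). SLIT2, a ligand of Robo receptors, fell, at -4.37 (SE 0.60) and -1.70 (SE 0.52), as did THBS1, the angiogenesis inhibitor thrombospondin, at -3.71 (SE 0.53) and -2.82 (SE 0.51). The SLIT2 call in Kmt2d KO was lost without Kmt2d KO replicate 1 or WT replicate 1 or 2, with an adjusted p up to 0.152. With the replicate block the genes called lower numbered 7 in each knockout. NRP2, a semaphorin and VEGF co-receptor and the most abundant gene listed, had log2 fold changes of 0.63 and 0.53 that were not called, with an adjusted p of 0.19 for Kmt2c KO that became 0.00116, a call, with the replicate block. In 168FARN 0 of 14 were called in either knockout by edgeR, beside 0.359% and 0.286% of all genes. Unadjusted p under 0.05 were found for 3 genes that were higher and 1 that was lower in Kmt2c KO and for 1 that was lower in Kmt2d KO, and DESeq2 called 2 higher in Kmt2c KO and 1 lower in Kmt2d KO. The share of all genes that passed either was not computed. With the replicate block 4 were called higher and 0 lower in Kmt2c KO and 5 higher and 1 lower in Kmt2d KO.

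Cadherins work with catenins at the membrane. Of 12 genes for other cadherins, catenins and junction proteins, 10 passed the filter in 67NR, and 1 was called higher and 5 lower in each knockout, beside 17.9% of all genes called higher and 17.4% lower in Kmt2c KO and 13.9% and 11.6% in Kmt2d KO. For CDH2 (N-cadherin), the 1 called higher, the WT libraries were at 8.35, 9.77 and 15 CPM, the Kmt2c KO libraries at 150, 158 and 275, and the Kmt2d KO libraries at 123, 114 and 214, log2 fold changes of 4.22 (SE 0.38) and 3.84 (SE 0.37). CDH1 (E-cadherin) fell, at -2.80 (SE 0.19) and -1.36 (SE 0.18), as did JUP (plakoglobin), at -2.31 (SE 0.27) and -1.62 (SE 0.27), and CTNNB1 (beta-catenin), at -1.43 (SE 0.18) and -1.26 (SE 0.18). In 168FARN 0 of 8 were called by edgeR or DESeq2 in either knockout, with 1 higher in Kmt2d KO at an unadjusted p under 0.05. Of all genes there, edgeR called 0.359% in Kmt2c KO and 0.286% in Kmt2d KO.

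**Figure D4:**
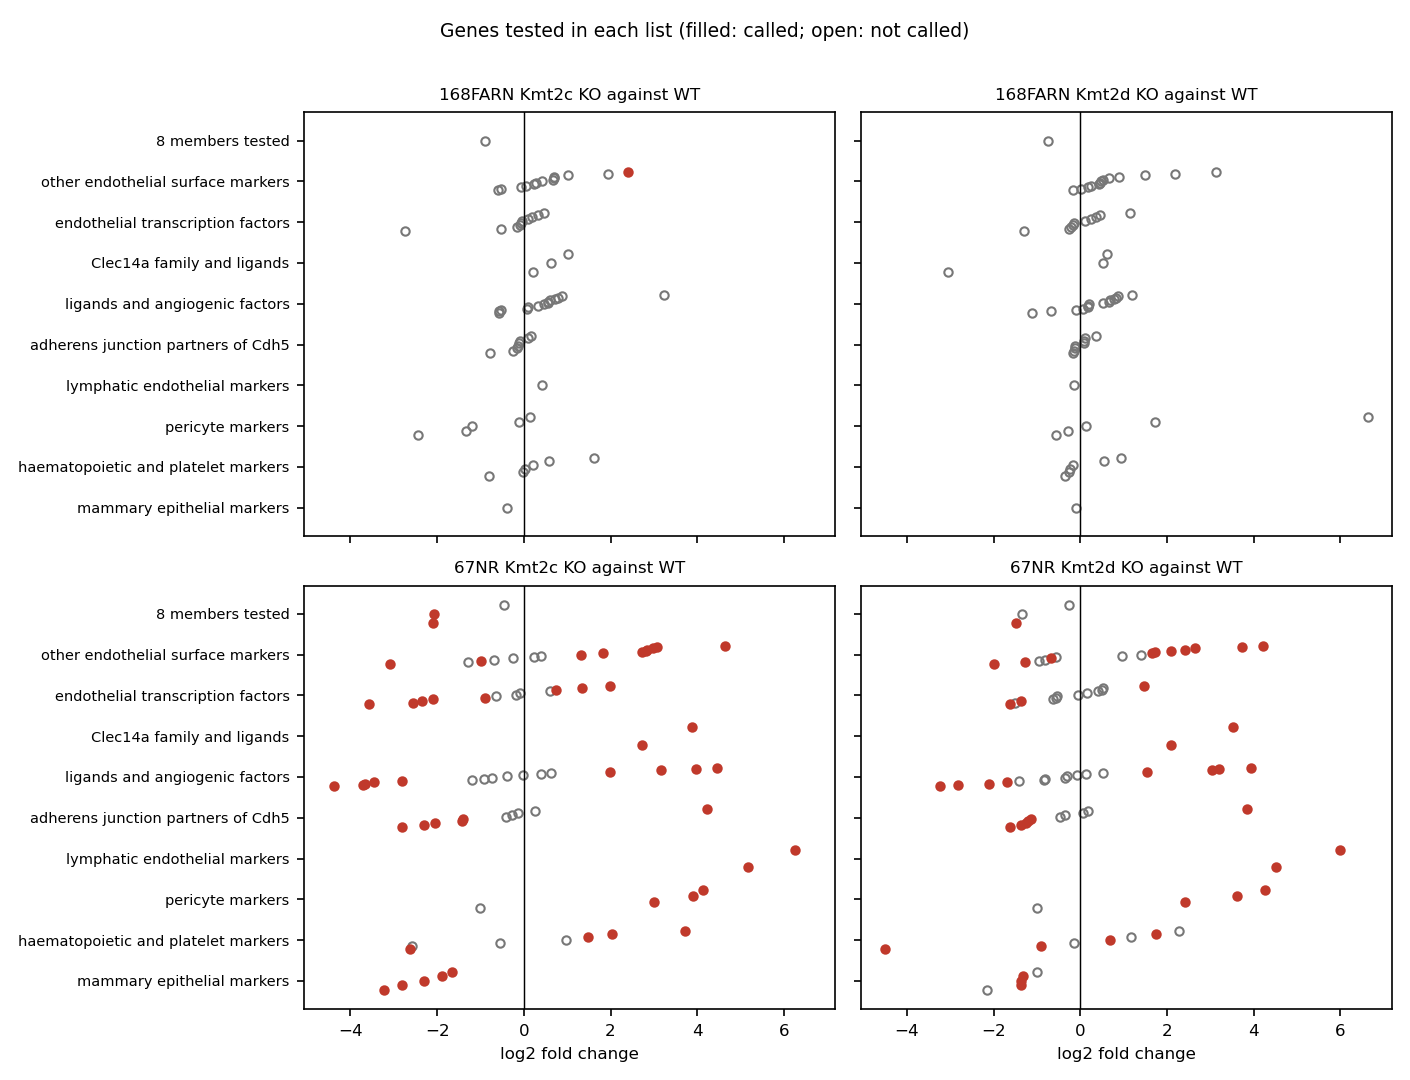
Log2 fold change of every gene tested in each list (points, 1 per gene) in the 4 comparisons of a knockout with WT, filled where the gene was called and open where it was not. In 67NR the other endothelial surface markers had 8 called higher and 2 lower in Kmt2c KO, whereas the tested members had 0 called higher, and in 168FARN 1 gene of all lists was called in Kmt2c KO and 0 in Kmt2d KO. Of all genes tested, 17.9% were called higher and 17.4% lower in 67NR Kmt2c KO. In 168FARN 0.359% were called in Kmt2c KO and 0.286% in Kmt2d KO.

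Markers of other cell types were also called in 67NR. There 17.9% of all genes tested were called higher and 17.4% lower in Kmt2c KO, and 13.9% and 11.6% in Kmt2d KO. Of 8 pericyte markers, 4 passed the filter and 3 were called higher and 0 lower in both knockouts, PDGFRB by 3.01 and 2.42, DES by 3.91 and 3.61 and ABCC9 by 4.13 and 4.26 on the log2 scale, and the summed level of all 8 ranged from 3.86 to 6.63 CPM for WT, from 33.9 to 43.8 for Kmt2c KO and from 29.7 to 33.2 for Kmt2d KO. Of 13 haematopoietic and platelet markers, 7 passed, with 3 higher and 1 lower in Kmt2c KO and 2 higher and 2 lower in Kmt2d KO. LCP1 fell, at -2.61 and -0.90, and ITGA2B and CD14 rose, by 2.04 and 1.75 and by 1.48 and 0.68. The CD14 call in Kmt2d KO was lost in 5 of the 6 omissions of 1 library, all but that of WT replicate 3 (0.53 to 1.0, adjusted p up to 0.26), and with no filter. CD79A and, of the pericyte list, ABCC9 passed the filter through knockout libraries, with at most 4 and 6 counts in a 67NR WT library. CD79A rose in Kmt2c KO by 3.72, and its Kmt2d KO value of 2.28 was called with the replicate block only, while CD68, the most abundant, was not called, at 0.96 and 1.17. With the block 2 of this list were lower in Kmt2c KO and 3 higher in Kmt2d KO. The summed level of the list ranged from 74.8 to 84.6 CPM for WT, from 58.7 to 103 for Kmt2c KO and from 70.9 to 116 for Kmt2d KO, while PTPRC, the common leukocyte antigen, had at most 4 counts in any library. Of 6 lymphatic endothelial markers, 2 passed and both were called higher in both knockouts, PDPN (podoplanin, also a gene of fibroblasts) by 5.18 and 4.52, and RELN. RELN had 0 counts in every 67NR WT library and at most 12 in any library. It passed the filter through the knockouts alone, so it could not be called lower. The summed level of all 6 ranged from 16.3 to 54.8 CPM for WT, from 1160 to 1580 for Kmt2c KO and from 799 to 965 for Kmt2d KO, while PROX1, the defining lymphatic factor, had 0 counts in all 18 libraries. PTPRC and PROX1 were named after their values were seen. Of 6 mammary epithelial markers, 5 passed and 5 were called lower in Kmt2c KO and 3 in Kmt2d KO (5 with the replicate block). KRT18 fell, at -2.30 and -1.32, as did EPCAM, at -1.89 and -1.37, and KRT14 in Kmt2c KO, at -3.22. The KRT18 call in Kmt2d KO was lost in 5 of the 6 omissions, all but that of Kmt2d KO replicate 3 (-1.93 to -0.91, adjusted p up to 0.256), and the KRT14 call without Kmt2c KO replicate 1 or 2 or WT replicate 3 (-4.42 to -1.51, adjusted p up to 0.226). The summed level of the list ranged from 2000 to 3300 CPM for WT, from 404 to 728 for Kmt2c KO and from 692 to 1470 for Kmt2d KO. In 168FARN 0 genes of these lists were called by edgeR, with 1 pericyte marker at an unadjusted p under 0.05 and 1 called by DESeq2, both in Kmt2d KO, and the replicate block gave 1 pericyte marker higher and 1 lower in Kmt2d KO. Of all 168FARN genes tested, edgeR called 0.359% in Kmt2c KO and 0.286% in Kmt2d KO. ABCC9 was at 0, 0 and 0.0473 CPM in 168FARN WT and at 0 CPM in each Kmt2c KO library. In 168FARN Kmt2d KO it was at 3.07, 1.65 and 1.88 CPM, a log2 fold change of 6.63 that edgeR did not call. Of the epithelial list in 168FARN, KRT8, named after its values were seen, was abundant, at 217 ± 156 CPM for WT, 167 ± 109 for Kmt2c KO and 200 ± 162 for Kmt2d KO (SD, n = 3), with replicate 3 highest in each genotype, whereas EPCAM had 0 CPM and KRT18 and CDH1 under 0.2 CPM on average in every genotype. The part of the epithelial and stromal genes in the endothelial-type changes was not tested. The marker gene set that the study used to annotate endothelial cells, CD34, PROM1, PECAM1 and CDH5, had 2 members tested in 67NR apart from CDH5, and 1 of them, CD34, was higher in both knockouts.

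The genes most like CDH5 over the 18 libraries, by Pearson's r of log2(CPM + 1) among 13882 genes, were XLR3B (r = 0.854), CFAP45 (0.851), RAB44 (0.843), CPZ (0.802) and CCDC184 (0.800). All 5 were low, between 0.118 and 0.763 CPM on average. Those most like CLEC14A were SEMA7A (0.935), MAP2K6 (0.932), IL34 (0.929), SRPX2 (0.927) and ABCA8A (0.921), between 0.544 and 129 CPM on average. No member of either set was an endothelial gene on the lists used here. CDH5 and CLEC14A themselves had r = 0.451 over the 18 libraries, and r = 0.895 and 0.871 over the 9 libraries of 168FARN and of 67NR, where libraries share passage, depth and the genotypes for which the pair was picked.

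No gene neighbouring CDH5 or CLEC14A was called. Within 100 kb of CDH5 lie BEAN1, at 26.0 kb, which had 0 CPM in every group, and TK2, a mitochondrial thymidine kinase gene at 82.2 kb. TK2 was at 25.9 ± 9.26 CPM in 168FARN WT against 31.6 ± 10.5 in Kmt2c KO and at 27.5 ± 9.36 CPM in 67NR WT against 19.8 ± 4.19 in Kmt2c KO (SD, n = 3), with adjusted p of 1 and 0.349 in edgeR. Within 100 kb of CLEC14A only SSTR1, a somatostatin receptor gene at 50.3 kb, had a row, and it had 0 CPM in every group.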

How the data were processed

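The deposited values are raw counts per gene from poly(A), strand-marking RNA-seq libraries sequenced as read pairs. The authors aligned the reads with STAR to mm9 within the VIPER pipeline, and how strand was handled in counting is not given in the sources used here. Low counts (1 to 20) were even in 39.5% to 47.2% of 168FARN values and in 91.2% to 96.2% of 67NR values, so mates of a pair may be counted separately in the 67NR file and counting error there may be larger than the counts imply. The gene symbols common to both files numbered 24333. The other symbols of the 67NR file were turned into dates and concern no gene named here.

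Genes were filtered with filterByExpr by genotype, scaled by TMM and tested with edgeR 4.0.16 (robust quasi-likelihood, R 4.3.3), on the 9 libraries of each line, or on all 18 for comparisons of the lines. DESeq2 1.42.0, its size factors, no filter, other thresholds, the replicate block, only the 6 libraries compared and leaving out each library were alternatives, and leaving out replicate 3 and halving the 67NR counts were added after seeing the data. Deviations from the group means of libraries with the same replicate number had correlations between 0.65 and 0.90 (168FARN) and between 0.35 and 0.72 (67NR), so the numbers pair the libraries. They mark passages about 5 days apart. Scaling by total counts moved the median log2 fold change of all genes in 67NR Kmt2d KO to -0.21. The test was also run on simulated data with known changes in well-counted genes and unpaired libraries. It therefore does not speak for low-count members or for paired replicates. Members and lists were chosen with earlier results of these data known. Named were all 10 members, and of each list the called genes with the smallest adjusted p (up to 4, or 8 for surface genes and transcription factors) and the most abundant gene. The lists were written from general knowledge, apart from the study's endothelial annotation genes.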

Additional observations from a re-analysis of the deposited data

Results flagged for a closer look

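Between 67NR and 168FARN, ENG, EGFL7 and PECAM1 were the members tested for a difference in the knockout effect. That difference was called for none of them by edgeR without the replicate block, although ENG and EGFL7 were called with it as given above. EGFL7 was nearly absent in 168FARN, so the knockout effect there could hardly be measured. A difference between lines was called for named genes of the other lists, and these differences are given on the log2 scale as the effect in 67NR minus that in 168FARN, each called by the interaction contrast of edgeR at an adjusted p under 0.1 over all genes with a difference over 0.6, a test called for 16.0% of genes for Kmt2c KO and 10.6% for Kmt2d KO.

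Among surface markers and lectin relatives, the Kmt2c KO effect differed by 3.87 for CD34, 3.32 for RASIP1, 2.05 for NOTCH4, 2.24 for ACVRL1 and 3.18 for THBD. The Kmt2d KO effect differed by 3.99 for CD34, 1.65 for NOTCH4, 2.15 for ACVRL1 and 2.85 for THBD. Among transcription factors, the Kmt2c KO effect differed by 1.8 for GATA2, -2.5 for FOXC1 and -3.14 for MEF2C, and the Kmt2d KO effect by -2.03 for FOXC1. Among ligands, the Kmt2c KO effect differed by 3.34 for SEMA3A, -3.22 for THBS1, -6.67 for SLIT2 and 3.6 for ADM, and the Kmt2d KO effect by -3.06 for THBS1 and 3.68 for ADM. Among junction partners, the Kmt2c KO effect differed by -1.41 for CTNNB1 and 4.29 for CDH2, and the Kmt2d KO effect by 3.91 for CDH2. Among markers of other cell types, the Kmt2c KO effect differed by -3.31 for LCP1, 6.95 for ABCC9, 3.03 for PDGFRB, 4.68 for PDPN, 3.68 for DES and 1.42 for CD14, and the Kmt2d KO effect by 2.24 for PDGFRB, 4.59 for PDPN and 4.12 for DES. ABCC9 and SLIT2 had at most 2 counts in any 168FARN WT library, so the sizes of their differences rest on the prior count.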

How the results depend on the processing

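In 67NR Kmt2c KO the 2 calls among the 8 genes became 1 with an adjusted p under 0.05, with or without a fold change over 1 on the log2 scale, and with no filter on low counts, and ranged from 1 to 2 when single libraries were left out (1 without Kmt2c KO replicate 1 or 2 or WT replicate 1 or 3), ENG being called in all of these. In 67NR Kmt2d KO the 1 call became 2 with the replicate block, without replicate 3 of every group and without Kmt2d KO replicate 3 (range 1 to 2). In 168FARN Kmt2c KO the 0 calls became 1 with the replicate block and 1 without replicate 3, and in 168FARN Kmt2d KO 1 without replicate 3. Between the 67NR knockouts the 0 calls became 1 with the replicate block and 1 without replicate 3. For the difference between lines in the Kmt2c KO effect, 0 became 1 with DESeq2, 2 with the replicate block and 2 without replicate 3, and ranged from 0 to 1 when single libraries were left out (1 without 168FARN WT replicate 2). For the Kmt2d KO effect it became 1 with the replicate block. Between the WT lines the 2 calls became 3 with DESeq2, with no filter, without replicate 3, and without 168FARN WT replicate 1 or 67NR WT replicate 3. The cause was not tested. No alternative run called any of the 8 genes higher in a knockout, and the replicate block changed no other call of a member.

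Of the surface markers and transcription factors together, the 1 call in 168FARN Kmt2c KO became 0 at both other thresholds, 0 with no filter, 0 with only the 6 libraries compared and 0 without any single library, 3 with DESeq2, 5 with the replicate block and 5 without replicate 3. The 0 calls in 168FARN Kmt2d KO became 1 with DESeq2, 5 with the replicate block and 6 without replicate 3. The cause was not tested. In 67NR these counts stayed within 1.5 times under every alternative.

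Values that changed sign were all uncalled or untested. Leaving out single libraries gave -0.37 to 0.48 for the difference between lines in the Kmt2c KO effect on CDH5, -0.63 to 0.06 for CLEC14A between the WT lines, -1.71 to 0.65 for EGFL7 and -0.69 to 0.15 for PECAM1 between the 67NR knockouts, -4.04 to 0.82 for the Kmt2d KO effect on EGFL7 between lines, -0.32 to 0.05 for ENG between the 168FARN knockouts, and -0.95 to 0.11 and -0.60 to 0.33 for PECAM1 in 67NR Kmt2c KO and Kmt2d KO. Without replicate 3 of every group, PECAM1 between the 67NR knockouts was 0.35 and in 67NR Kmt2d KO -0.85, the difference between lines was -0.98 for the Kmt2c KO effect on CDH5 and -5.75 for the Kmt2d KO effect on EGFL7, and CLEC14A between the WT lines was 0.063 without 67NR WT replicate 3. The 5 members that failed the filter in both lines could not be tested at this depth.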
